A study of Mus musculus with 8 samples.

Results

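Chaperones are proteins that help others fold, refold or be degraded. In the heat shock response, heat or misfolded protein releases heat shock factor 1 (HSF1), which binds heat shock elements, inverted repeats of short units in promoters, and switches on genes for HSP70, HSP90 and their partners. In peripheral nerve these chaperones are present in Schwann cells and axons, and HSP70 is known to bind mutant SOD1. The 10 genes described here are known HSF1 targets: Hsph1, Hspa1a, Hspa8, Hsp90aa1, Stip1, Chordc1, Dnajb1, Dnaja1, Dnajb4 and Bag3. They were taken by gene name from the array files, among 15343 genes tested, after their difference between SOD1G93A and wild-type nerve had been seen. That difference is therefore given as a description, with no p-value for the 10 genes. The 10 names are carried by 14 probes, and all 14 were well above background on 8 of 8 arrays in both channels.

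The samples were sciatic nerves of male mice aged 60 days, 4 from mice carrying the SOD1G93A transgene, a mutant human SOD1 used to model amyotrophic lateral sclerosis, and 4 from wild-type (WT) mice called non-transgenic controls in the design text. The promoter of the transgene and the strain background are not given in the sources used here. Each nerve RNA carried the dye Cy3 and was hybridised together with a Cy5-labelled pool of RNA from neonatal heart, liver and kidney, in which wild type and SOD1G93A were pooled. The unit throughout is the log2 ratio of Cy3 to Cy5, so a value of 0 means equal normalised signal in nerve and pool, and a difference of 1 is a 2-fold change in the ratio. Whole nerve holds several cell types, so a change in the number of cells of a type and a change in RNA per cell cannot be told apart.

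The share of spots with Cy3 signal well above background ran from 35.5% to 41.7% over the arrays. SOD1G93A replicate 1 and WT replicate 1 stood apart from the other arrays. They lay at -30.3 and 33.7 on a first principal component holding 36.4% of the variance, with the others between -10.9 and 14.7, and had the lowest and highest median Cy3 intensity, 374 and 713, with the others between 527 and 598. Where 1537 transcripts had a pair of probes at least 500 bases apart, the difference between the probes had an interquartile range of 0.55 on SOD1G93A replicate 1 and of 0.20 to 0.29 on the other arrays. The first slide position number was 2 for every SOD1G93A array and 1 for every WT array, and the genotypes cannot be told apart from these slide positions. The Sod1 probe gave -0.04 ± 0.09 in SOD1G93A and 0.13 ± 0.20 in WT nerve (SD, n = 4 each), and whether it also reads the human transgene was not analysed here. All 9 Schwann cell markers measured were well above background on 8 arrays.

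The heat shock element is built of alternating GAA and TTC units. Both arrangements of a unit pair, GAANNTTC and TTCNNGAA, read the same on both strands and were searched in the RefSeq promoter windows (GRCm38.p6, 250 bases before to 50 after a transcription start). Windows were matched for 8 of the 10 genes, giving 13 starts, and not for Hsp90aa1 and Hspa8. A pair was present in 7 of the 13 windows, from 6 genes, against 15.1% of 32851 windows over all genes and 7 of 21 windows (33.3%) of other HSF1 target genes. The run of 3 units, GAANNTTCNNGAA on either strand, which overlaps the pairs, was in 3 of the 13 windows, from Hsph1 and Chordc1, against 0.603% of all windows and 2 of 21 windows (9.52%) of the other HSF1 target genes. The windows of the 2 Hsph1 starts overlap and hold the same run. The windows that carry the 3-unit run, and that of Hspa1a with its single pair, are shown with the matched letters in capitals. A match is a description of the sequence only.
Hsph1 (chr5:149636287-149636586, minus strand): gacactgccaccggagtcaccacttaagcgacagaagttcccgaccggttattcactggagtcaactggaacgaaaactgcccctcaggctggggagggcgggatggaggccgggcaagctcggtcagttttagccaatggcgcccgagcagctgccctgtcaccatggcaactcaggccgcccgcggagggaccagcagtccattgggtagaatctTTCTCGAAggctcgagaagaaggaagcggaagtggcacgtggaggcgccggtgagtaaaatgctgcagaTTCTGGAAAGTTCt
Chordc1 (chr9:18292017-18292316, plus strand): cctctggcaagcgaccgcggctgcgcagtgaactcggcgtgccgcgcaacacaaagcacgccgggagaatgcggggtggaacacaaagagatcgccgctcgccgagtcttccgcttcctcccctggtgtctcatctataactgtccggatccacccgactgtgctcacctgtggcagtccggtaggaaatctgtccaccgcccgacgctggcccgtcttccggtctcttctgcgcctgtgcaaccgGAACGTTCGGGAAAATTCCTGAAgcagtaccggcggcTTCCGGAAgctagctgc
Hspa1a (chr17:34972107-34972406, minus strand): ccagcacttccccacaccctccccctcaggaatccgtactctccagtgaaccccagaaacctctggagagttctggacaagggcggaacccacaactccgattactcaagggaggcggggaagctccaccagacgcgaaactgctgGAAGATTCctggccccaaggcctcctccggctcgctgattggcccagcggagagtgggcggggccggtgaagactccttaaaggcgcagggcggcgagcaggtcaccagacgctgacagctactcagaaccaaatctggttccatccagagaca

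In Hsph1 a pair began 33 bases before the start shown, and the 3-unit run began at base 37 after it. Chordc1 held 5 overlapping or neighbouring pairs, the first beginning at base -4 and the last at base 34. In Hspa1a the pair began at base -104, the same position as in Hspa1b, its near-identical neighbour. Of the other genes, Dnaja1 had a pair at base -124, Bag3 at base 43 and Dnajb4 at base -14 of its second start, while Dnajb1 and Stip1 had no match in these windows.

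**Figure D1:**
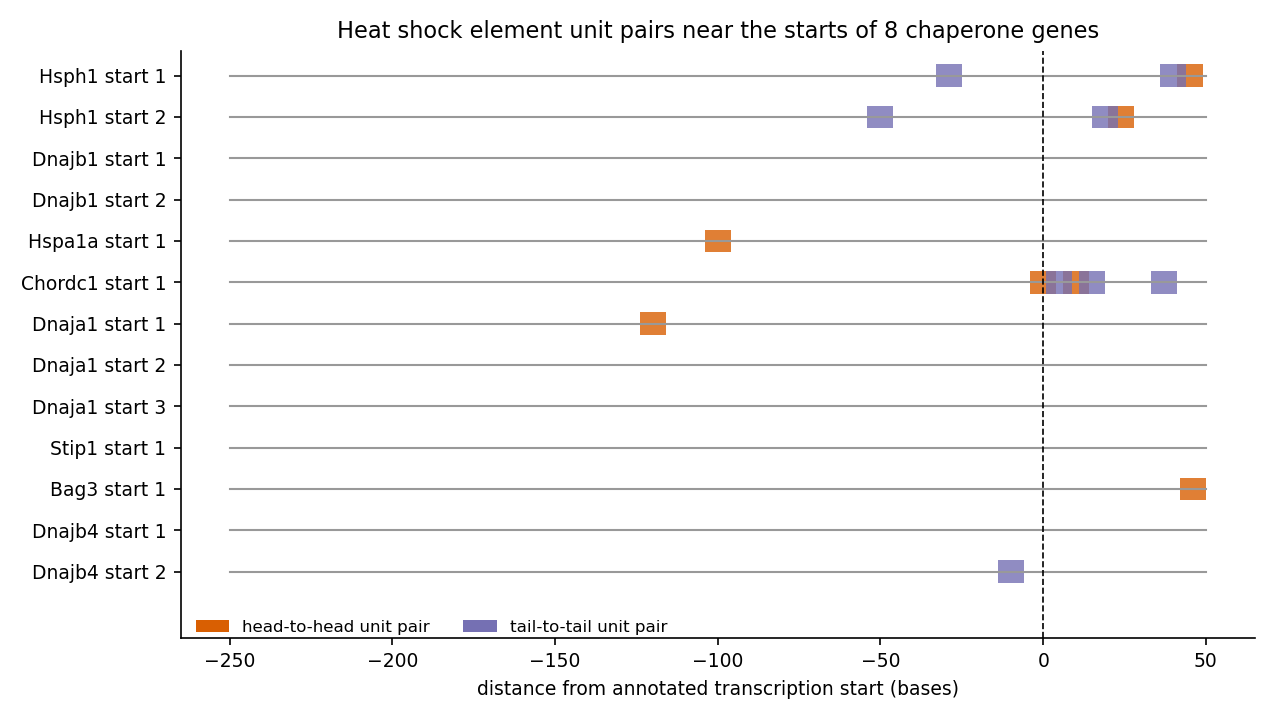
Positions of heat shock element unit pairs (boxes, orange where the GAA unit comes first and purple where the TTC unit does) in the promoter windows of 8 chaperone genes, 1 line per annotated start, against distance from that start in bases. Pairs cluster just after the start in Chordc1 and on both sides of it in Hsph1, and 6 of the 13 lines carry none.

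All 10 genes were higher in SOD1G93A than in WT nerve, by a median of 0.56 on the log2 scale, with a range of 0.24 (Bag3) to 1.15 (Hspa1a). Over all 15343 genes, 45.3% were higher by any amount, 1.13% by 0.5 or more, as were 6 of the 10, and the median difference was -0.02. For 9 of the 10 genes the 4 SOD1G93A arrays did not overlap the 4 WT arrays, and for Dnaja1 they did; 3.66% of all genes were higher without overlap. In the limma fit over all genes, 0.0717% of genes were called higher at a Benjamini-Hochberg adjusted p under 0.05, and none of the 10 was among them. Because the genes were chosen on this difference, nothing is read from these counts.

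**Figure D2:**
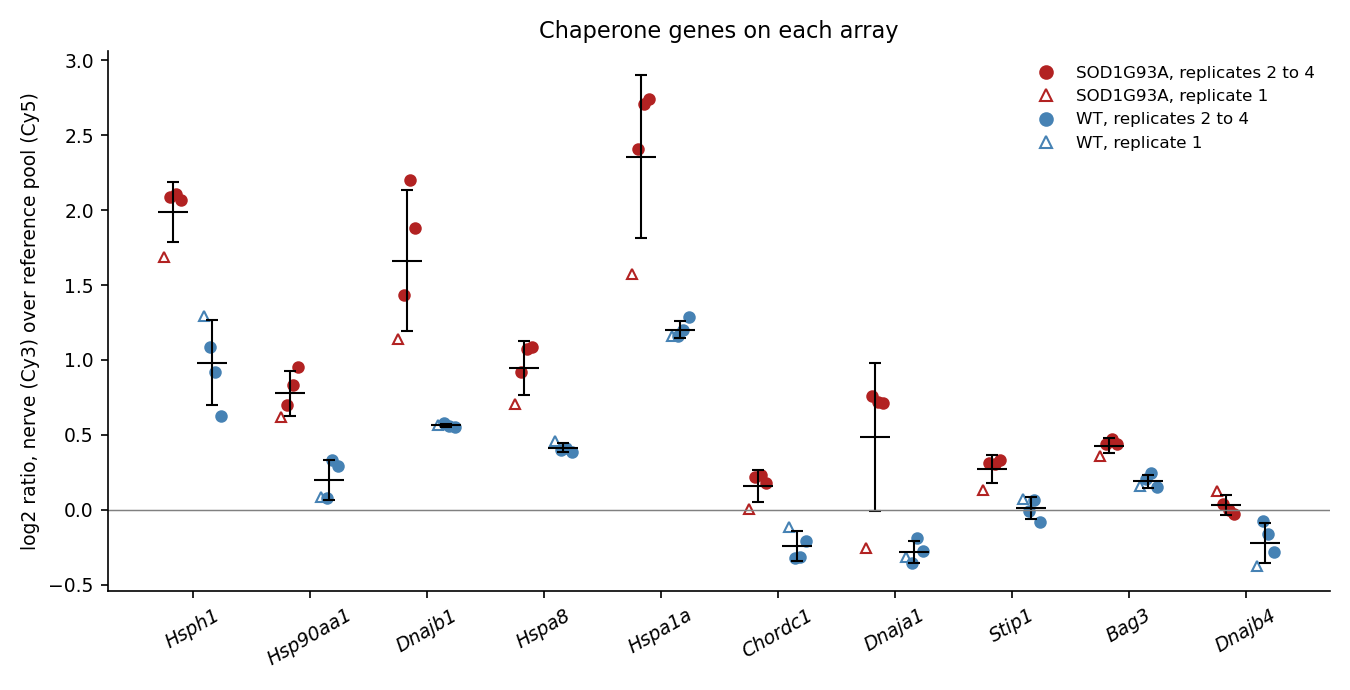
Log2 ratio of nerve to reference pool (vertical axis) for each of the 10 genes on each array, SOD1G93A in red and WT in blue, with the mean and SD of 4 arrays as black bars and replicate 1 of each group as an open triangle. Red points lie above blue ones for every gene except Dnaja1, whose SOD1G93A replicate 1 lies among the WT arrays.

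Hsph1 encodes HSP110, which exchanges nucleotide on HSP70 and helps it to break up aggregates. Its brighter probe (chr5:150419744-150419803 on build mm9, minus strand) read 1.69, 2.09, 2.11 and 2.07 in SOD1G93A replicates 1 to 4, against 1.30, 1.09, 0.92 and 0.63 in WT replicates 1 to 4. The groups did not overlap, replicate 1 was the lowest SOD1G93A array, and WT arrays were more widely spread. The difference was 1.01 ± 0.15 (SE), a fold of 2.01. The brighter probe starts at base 3094 of the transcript, and a second Hsph1 probe starting at base 2728 read 1.77, 1.88, 1.84 and 1.84 in SOD1G93A nerve, against 1.11, 0.95, 0.82 and 0.58 in WT nerve, a difference of 0.97 ± 0.11 (SE). On both probes WT replicate 1 was the highest WT array and WT replicate 4 the lowest.

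Hspa1a encodes the stress-inducible HSP70. Its single probe (chr17:35107117-35107176 on mm9, minus strand) is shown because it lists transcripts of both Hspa1a and Hspa1b, so that the value may hold both genes, and no probe carries the name Hspa1b.
Hspa1a probe: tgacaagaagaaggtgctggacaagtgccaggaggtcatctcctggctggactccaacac
It read 1.57, 2.41, 2.70 and 2.74 in SOD1G93A nerve, against 1.16, 1.16, 1.20 and 1.29 in WT nerve. The WT arrays lay within a narrow band, and SOD1G93A replicate 1 lay nearer to that band than to the other SOD1G93A arrays. The difference was 1.15 ± 0.23 (SE), 2.22-fold, the largest of the 10. Split into channels and scaled between arrays, the nerve channel differed by 1.41 and the pool channel by 0.25. The pool signal was dim, between 41.0 and 77.3 intensity units before background correction.

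Hspa8 encodes HSC70, the constitutive HSP70 of the cytosol. 3 probes read it, and they did not give the same difference.

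The brightest, starting at base 2044 of the transcript (chr9:40613223-40613282 on mm9, plus strand), read 0.71, 0.92, 1.08 and 1.09 in SOD1G93A nerve, against 0.46, 0.40, 0.41 and 0.39 in WT nerve. The groups did not overlap, and the difference was 0.53 ± 0.10 (SE), 1.45-fold. By channel, nerve signal differed by 0.35 and pool signal by -0.19, and the ratio's difference holds both. The other probes are shown because their values on SOD1G93A replicate 1 part from those of the brightest probe.
Hspa8 probe from base 1812: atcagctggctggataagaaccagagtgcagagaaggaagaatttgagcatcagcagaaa
Hspa8 probe from base 730: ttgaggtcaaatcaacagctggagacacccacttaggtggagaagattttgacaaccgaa
The probe from base 1812 read 0.51, 0.92, 1.05 and 1.15 in SOD1G93A nerve, against 0.52, 0.40, 0.42 and 0.38 in WT nerve, a difference of 0.48 ± 0.13 (SE). The probe from base 730 read 0.60, 1.86, 1.93 and 2.02 in SOD1G93A nerve, against 1.59, 1.32, 1.41 and 1.29 in WT nerve, a difference of 0.20 ± 0.28 (SE). On both, SOD1G93A replicates 2 to 4 lay above every WT array, while SOD1G93A replicate 1 lay among the WT arrays on the first and below all of them on the second. HSP70 family genes are close in sequence, and cross-hybridisation was not tested.

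Hsp90aa1 encodes the inducible cytosolic HSP90. Its probe (chr12:111929248-111929307 on mm9, minus strand) read 0.62, 0.70, 0.83 and 0.96 in SOD1G93A nerve, against 0.087, 0.078, 0.34 and 0.29 in WT nerve. The groups did not overlap, and the lowest array of SOD1G93A was again replicate 1. The difference was 0.58 ± 0.10 (SE), 1.49-fold.

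The co-chaperones of HSP90 differed less. Stip1 encodes HOP, which bridges HSP70 and HSP90. It read 0.13, 0.31, 0.31 and 0.34 in SOD1G93A nerve, against 0.070, -0.010, 0.068 and -0.080 in WT nerve, a difference of 0.26 ± 0.08 (SE). Chordc1 encodes a zinc-binding HSP90 co-chaperone, and it read 0.0050, 0.22, 0.23 and 0.18 in SOD1G93A nerve, against -0.11, -0.32, -0.31 and -0.21 in WT nerve. Neither gene's groups overlapped, and for Chordc1 every SOD1G93A value was above the pool and every WT value below it. Those signs depend on the normalisation. With arrays centred on the median in place of loess, Chordc1 read -0.36 on SOD1G93A replicate 1 and 0.29 on WT replicate 1. The Chordc1 difference was 0.40 ± 0.09 (SE), 1.32-fold.

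J-domain proteins deliver clients to HSP70 and start its ATPase cycle. Dnajb1, the main heat-inducible one, read 1.14, 1.43, 2.20 and 1.88 in SOD1G93A nerve, against 0.56, 0.58, 0.56 and 0.55 in WT nerve. The WT arrays lay almost on one value (SD 0.012), whereas the SOD1G93A arrays were spread with an SD of 0.47, and the groups did not overlap. The difference was 1.099 ± 0.20 (SE), 2.14-fold. Dnajb4, a related J-domain protein, read 0.13, 0.037, -0.0019 and -0.025 in SOD1G93A nerve, against -0.38, -0.073, -0.16 and -0.28 in WT nerve. Here SOD1G93A replicate 1 was the highest array of its group, unlike in the other 9 genes, and the difference was 0.26 ± 0.09 (SE).

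Dnaja1 encodes a J-domain partner of HSC70. Its brighter probe, starting at base 1393, read -0.25, 0.76, 0.72 and 0.72 in SOD1G93A nerve, against -0.31, -0.36, -0.19 and -0.27 in WT nerve. SOD1G93A replicate 1 lay within the WT range and the other 3 SOD1G93A arrays lay far above it. The difference of 0.77 ± 0.21 (SE) was 1.01 without SOD1G93A replicate 1. A second Dnaja1 probe starting at base 3377 read 0.68, 0.48, 0.61 and 0.67 in SOD1G93A nerve, against 0.25, 0.50, 0.44 and 0.45 in WT nerve. On that probe SOD1G93A replicate 1 was the highest of all arrays, replicate 2 lay within the WT range, and the difference was 0.20 ± 0.09 (SE). The 2 Dnaja1 probes gave the same sign with sizes of 1.70-fold and 1.15-fold. The probe from base 3377 was dim, with Cy3 intensity of 188 to 238 and Cy5 intensity of 40.4 to 51.2 before background correction, against Cy3 of 3823 to 12164 for the other.

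**Figure D3:**
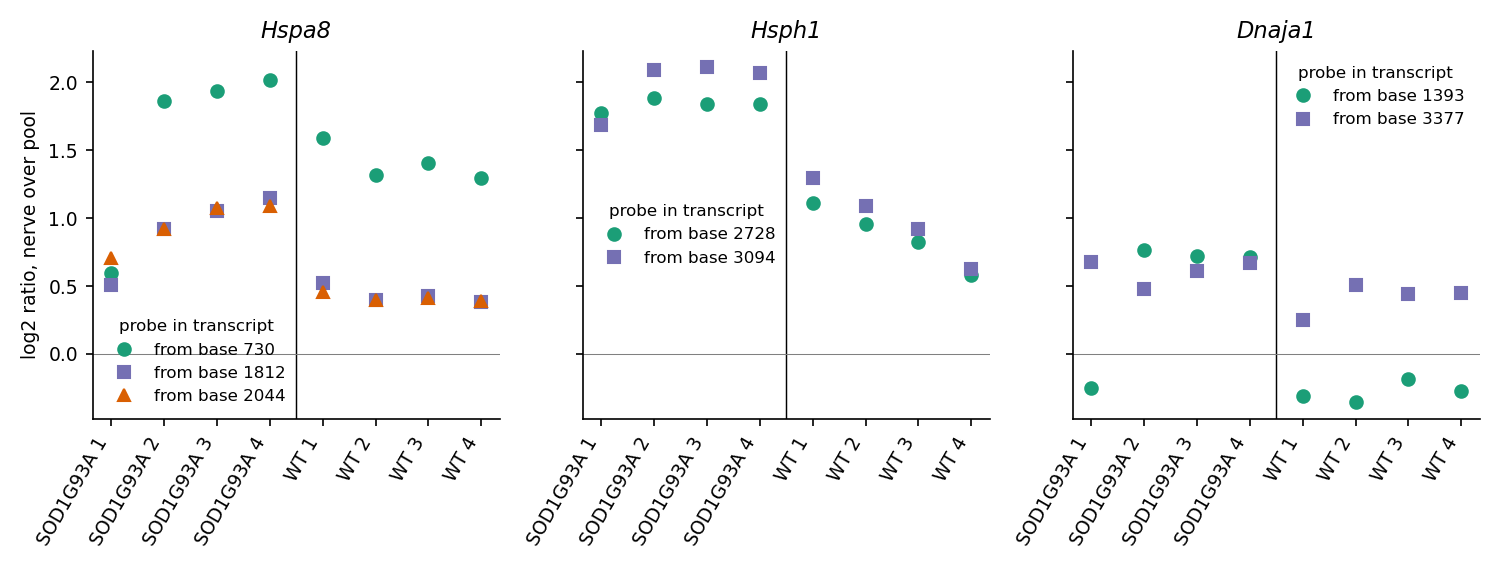
Log2 ratio of nerve to pool on each array for the probes of Hspa8, Hsph1 and Dnaja1, with SOD1G93A arrays left of the vertical line and WT arrays right of it. Symbols mark the base of the transcript at which a probe starts. The probes of Hsph1 ran together, while the Hspa8 probe from base 730 and the Dnaja1 probe from base 1393 were low on SOD1G93A replicate 1.

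Bag3 encodes a nucleotide exchange factor that couples HSP70 to autophagy and small heat shock proteins. It read 0.36, 0.44, 0.47 and 0.44 in SOD1G93A nerve, against 0.16, 0.20, 0.25 and 0.16 in WT nerve. The groups did not overlap, and at 0.24 ± 0.07 (SE), 1.18-fold, the difference was the smallest of the 10. On the brightest probe of each gene, the arrays of each group lay closer together than for the other genes except Dnajb1 in WT and Hspa8 in WT.

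Centred on each gene's own mean, the 10 genes averaged 0.014, 0.34, 0.47 and 0.44 on SOD1G93A replicates 1 to 4 and -0.30, -0.32, -0.29 and -0.35 on WT replicates 1 to 4. On SOD1G93A replicates 2, 3 and 4 all 10 genes were above their own mean, and on SOD1G93A replicate 1 this held for 7. On the WT arrays 1 value of 40 was above, that of Dnajb4 on replicate 2. Without SOD1G93A replicate 1 the median difference of the 10 genes was 0.62, and on the 6 arrays numbered 2 to 4 it was 0.61, with 10 of 10 genes higher without overlap in both, against 7.68% and 11% of all genes in those smaller sets of arrays. With arrays centred on the median in place of loess, the median difference was 0.54 and 0 of 10 genes were higher without overlap, against 1.1% of all genes. In that setting the median was taken over all spots except controls, dim ones included, so the genes tested kept offsets between arrays. The median of all genes tested lay at -0.27, 0.26, 0.20 and 0.19 on the SOD1G93A arrays. On the WT arrays it lay at 0.38, -0.026, 0.19 and -0.0018.

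**Figure D4:**
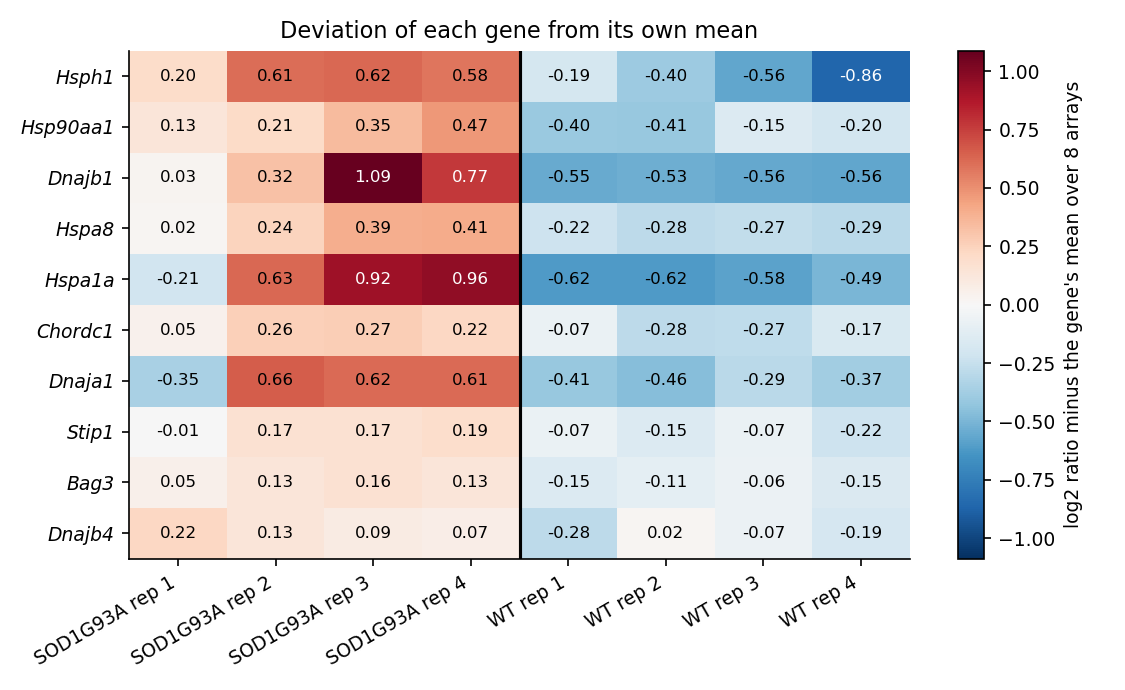
Deviation of each gene (rows) from its mean over 8 arrays (columns, SOD1G93A left of the black line and WT right of it), in log2 units. The SOD1G93A side is above the mean except for Hspa1a, Dnaja1 and Stip1 on replicate 1, and the WT side is below it except for Dnajb4 on replicate 2.

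Set against the reference pool, the WT level of each gene is a comparison that the choice did not rest on, although the same WT arrays enter both. In WT nerve 6 of the 10 genes were above the neonatal pool and 2 below it in the limma fit over all genes, where 42.7% of genes were above and 34.1% below. Hsph1 stood 0.98 above (adjusted p = 2.09e-05), Hspa1a 1.20 (adjusted p = 8.43e-05), Hspa8 0.41 (adjusted p = 0.000355), Dnajb1 0.56 (adjusted p = 0.00470), Bag3 0.19 (adjusted p = 0.00546) and Hsp90aa1 0.20 (adjusted p = 0.0314). Chordc1 was lower by limma at -0.24 (adjusted p = 0.00532) and Dnajb4 at -0.22 (adjusted p = 0.00842), while Stip1 at 0.012 (adjusted p = 0.856) and Dnaja1 at -0.28 (adjusted p = 0.109) did not pass. With median centring 3 of the 10 passed. The share of all genes that passed in that setting is not given here, so the lower count is not read as particular to the 10. The dyes were not swapped, so each of these ratios may hold a dye bias, which cancels in the difference between genotypes.

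Chaperone genes outside the 10 were higher and lower in similar numbers. Of 87 further genes in lists drawn from textbook knowledge, 80 were measured, 43 of them higher and 37 lower in SOD1G93A nerve, with a median difference of 0.01 against -0.02 over all genes. None was called by limma, where 0.163% of all genes were called in either direction and 0.0912% lower, and 5 had an unadjusted p under 0.05 (Hspa5, Dnaja4 and Dnajb11 higher, Hspa12b and Dnajc10 lower), where 11.4% of all genes did. The groups did not overlap for 2 genes that were higher and 4 that were lower, against 3.66% and 4.33% of all genes. Those beyond Hspa5, Dnaja4 and Hspa12b are named to complete that count. The difference between the 10 genes and these lists was not tested, because the 10 were chosen on it.

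The factors themselves did not pass the test. Hsf1, the heat shock factor that drives the response, differed by 0.02 ± 0.11 (SE, limma adjusted p = 0.965) and Hsf2, its relative, by 0.13 ± 0.11 (limma adjusted p = 0.674). The arrays measure mRNA, and HSF1 is controlled largely by trimerisation and modification of the protein, which they do not read.

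Among other targets of HSF1, 20 of 22 listed genes were measured, 12 higher and 8 lower, with 0 called by limma, 0 at an unadjusted p under 0.05 and a median of 0.08. Ptges3, the HSP90 co-chaperone p23, had the smallest p of that list and of the HSP90 list, at 0.19 ± 0.09 (SE, limma adjusted p = 0.446). Hsp90ab1, the constitutive HSP90, differed by 0.09 ± 0.10 and Hspb1, the small heat shock protein HSP27 (HSP25 in mouse), by -0.01 ± 0.14. The Hspb1 promoter window holds pairs beginning at bases -117 and -97.

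By class, 4 of 7 other HSP70 and HSP110 genes, 10 of 13 other HSP90 genes and co-chaperones and 11 of 18 other J-domain genes were higher, with medians of 0.02, 0.05 and 0.01. Among the J-domain genes Dnaja4, a cytosolic relative of Dnaja1, differed by 0.42 ± 0.13 (limma adjusted p = 0.286) and Dnaja2 by 0.12 ± 0.08 (limma adjusted p = 0.594). Among the HSP70 genes Hspa12b, a distant member expressed in endothelium, differed by -0.37 ± 0.10 (limma adjusted p = 0.198). In the endoplasmic reticulum Hspa5, the chaperone BiP, differed by 0.47 ± 0.10 (limma adjusted p = 0.123), with 4 of 6 genes of its class higher.

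The remaining classes had medians at or below 0.03. Of the nucleotide exchange factors and other regulators of HSP70, 4 of 7 were higher, and Bag4 had the smallest p at -0.11 ± 0.08. Small heat shock proteins were lower in 5 of 6, the smallest p being that of Hspb6 at -0.28 ± 0.14, cytosolic chaperonin subunits in 7 of 8, the smallest p being that of Cct2 at -0.19 ± 0.19, and mitochondrial chaperones in 3 of 4, the smallest p being that of Trap1 at -0.40 ± 0.21 (SE, none called by limma). The chaperonin and mitochondrial means were low on SOD1G93A replicate 1, at -0.57 and -0.48 relative to their means over arrays, while the other SOD1G93A arrays lay between 0.067 and 0.16.

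**Figure D5:**
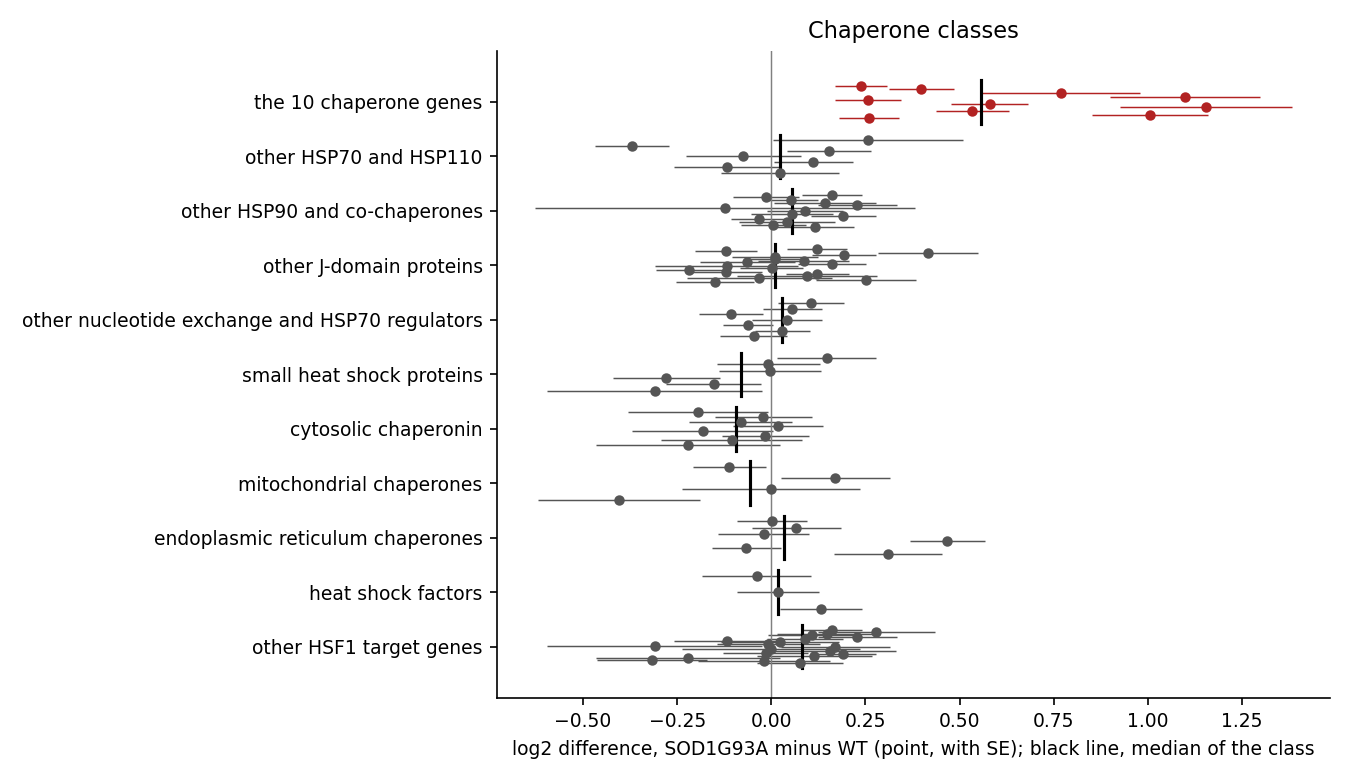
Difference in log2 ratio between SOD1G93A and WT nerve with its SE (horizontal axis) for the 10 chaperone genes (red, top row) and for the other chaperone classes (grey), 1 point per measured gene, with the class median as a black line. The 10 genes lie between 0.24 and 1.15, and the other 80 between -0.40 and 0.47; some genes appear in both a structural class and the HSF1 target list.

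Genes of 2 other responses also differed between the genotypes, and their part in the result was not tested. Of 16 measured immediate early genes, which cells induce within minutes of stimulation, 14 were higher, against 45.3% of all genes. At an unadjusted p under 0.05 by limma were 11, against 11.4% of all genes. Without overlap 5 were higher and 1 lower, against 3.66% and 4.33% of all genes. Jun rose by 1.11 ± 0.15 (SE, limma adjusted p = 0.0391), but was not called in 10 of 19 alternatives, among them leaving out SOD1G93A replicate 3 or 4 or any WT array (limma adjusted p of 0.0074 to 0.302 over the alternatives). Atf3 differed by 0.84 ± 0.13 (limma adjusted p = 0.0591). The mean of the list, centred over arrays, lay at 0.25, -0.27, 0.95 and 0.75 on SOD1G93A replicates 1 to 4 and between -0.57 and -0.33 on WT arrays. Its lowest SOD1G93A array was replicate 2, and no relation to the 10 chaperone genes is read from this order. The pair of cold-inducible RNA-binding protein genes went the other way. Cirbp fell by 1.12 ± 0.13 (SE, limma adjusted p = 0.0337) and was not called in 9 of 19 alternatives, among them leaving out SOD1G93A replicate 3 or 4 or WT replicate 2 or 3 (limma adjusted p of 0.0028 to 0.352 over the alternatives). Rbm3 differed by -0.54 ± 0.17 (limma adjusted p = 0.286). The mean of the pair lay between -0.69 and -0.04 on SOD1G93A arrays and between 0.29 and 0.57 on WT arrays.

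No marker of the cell types searched was called by limma, and what these cells contribute to the values of the 10 genes was not tested. Macrophage markers were higher in 9 of 9, with 0 called by limma, where 45.3% of all genes were higher. Of these markers 5 had an unadjusted p under 0.05 by limma, as did 11.4% of all genes. The groups did not overlap for 3 of them, against 3.66% of all genes. Their mean lay at -0.43, 0.43, 0.47 and 0.78 on SOD1G93A replicates 1 to 4 and between -0.54 and -0.17 on WT arrays. SOD1G93A replicate 1 was the lowest of its group here, as it was in several other lists but not in all, so this is not particular to macrophage markers. Schwann cell markers were higher in 9 of 9 with a median of 0.12 and 0 at an unadjusted p under 0.05 by limma. Their mean spanned -0.12 to 0.55 in SOD1G93A and -0.34 to 0.20 in WT nerve. The value of 0.55 was that of SOD1G93A replicate 1, while SOD1G93A replicates 2 to 4 lay below 0 and within the WT range. The direction of the mean of these markers therefore depends on SOD1G93A replicate 1. Fibroblast markers were higher in 2 of 6, with means of -0.35 to 0.25 in SOD1G93A and -0.22 to 0.18 in WT nerve.

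Most markers of muscle, fat and vessels had lower values in SOD1G93A nerve, with 0 called by limma. At an unadjusted p under 0.05 by limma were 6 skeletal muscle, 3 adipocyte, 5 smooth muscle and pericyte and 6 endothelial markers. Of all genes, 11.4% were. The groups did not overlap for 4 endothelial and 1 adipocyte markers that were lower, against 4.33% of all genes. They overlapped for all skeletal muscle and all smooth muscle and pericyte markers measured. Skeletal muscle markers were lower in 7 of 7 measured, with means of -1.11 to -0.87 in SOD1G93A and -0.83 to 3.17 in WT nerve, the highest being WT replicates 1 and 2. Mylpf of that list was not well above background on any array. Adipocyte markers were lower in 7 of 7, with means of -1.65 to -0.08 in SOD1G93A and -0.36 to 1.34 in WT nerve, and Lep was well above background on 1 array. Smooth muscle and pericyte markers were lower in 6 of 7, with means of -0.69 to -0.27 in SOD1G93A and -0.39 to 1.11 in WT nerve, and endothelial markers in 7 of 8, with means of -0.45 to -0.11 in SOD1G93A and 0.03 to 0.44 in WT nerve. On the same 4 WT arrays the centred mean of the 10 chaperone genes lay between -0.35 and -0.29. Any relation between these markers and the 10 genes was not tested.

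The genes most like the 10 were found by the root mean square difference between a gene's centred profile and the mean centred profile of the 10, over 8 arrays and all genes tested. Of the 10 themselves Hspa8 was nearest, at 0.057, and Hspa1a farthest, at 0.34. Each of the 10 is part of the mean profile, so its distance is not on a par with that of an outside gene. Profiles were not scaled, so a distance also reflects the size of a gene's difference, which was largest for Hspa1a. Outside the 10, the nearest were Slc15a4, a lysosomal transporter of histidine and peptides, at 0.097, Wdr61, a subunit of the PAF complex of transcription, at 0.10, Isyna1, which makes inositol phosphate, at 0.12, Phlda1, a pleckstrin homology protein, at 0.13, and Fosl2, a transcription factor of the AP-1 family, at 0.13. Their mean log2 ratios were 1.28, 0.42, -0.06, 0.11 and 0.73 in SOD1G93A nerve, against 0.82, -0.34, -0.73, -0.50 and 0.02 in WT nerve. They were picked for this likeness, so their difference between genotypes is a description.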

How the data were processed

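Spot intensity, with flags and local background, was deposited per array on a linear scale, written by Agilent Feature Extraction 11.5.1.1 per the file headers, whereas 11.0.1.1 is the version in the submitters' processing notes, which list limma too. The deposited series matrix gives a log10 ratio per spot, Cy5 over Cy3, equal to the scanner files' own (largest difference 0), with 33.3% of values exactly 0. Other deposited columns (flags, names, probe sequences) have no scale. Probe coordinates come from the files (mm9). The labels call the 4 arrays of a group biological replicates.

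Mean intensities were corrected with normexp (offset 50) against the median local background and normalised by loess within each array, with no scaling between arrays. Spots marked non-uniform or as outliers were left out and spots of a probe averaged. A probe was kept where its Cy3 signal was well above background on 4 or more of the 8 arrays, which left 19838 of 55681. Each gene name took its kept probe of highest Cy3 intensity, giving 15343 genes. Log2 ratios of Cy3 over Cy5 were fitted with lmFit and eBayes of limma 3.58.1 (R 4.3.3, data.table, version 1.17.8), 2-sided, with Benjamini-Hochberg adjustment over all genes and a threshold of 0.05; standard errors come from this fit, and from a fit over all kept probes for second probes. Channel differences came from Aquantile scaling. The fit was tested on simulated data. The number of arrays limits the precision.

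The 10 genes and all lists were chosen with earlier results of these data known. Named genes are the 10, the gene of smallest p in each other chaperone list, any called gene of those lists, Hsf1, Hsf2, Hspa1b, Hsp90ab1, Hspb1 and Dnaja2, the 2 of smallest p among immediate early and cold-inducible genes, and the 5 nearest profiles. Sod1, Dnajb11, Dnajc10, Mylpf, Lep, Sdf2l1 and Hspd1 fall outside this rule and were named after their values were seen. Deviations of same-numbered arrays correlated at -0.16, 0.04, -0.11 and 0.10. No pairing by replicate number was seen, but so few values cannot exclude it. The second slide position number equalled the replicate number in both genotypes. Values of single Schwann cell markers are not reported here.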

Additional observations from a re-analysis of the deposited data

Results flagged for a closer look

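Among 28 groups of 4 arrays (14 probes in each genotype), 4 had 1 array whose gap to its neighbour exceeded Dixon's critical share of the group's range, where chance flags about 1 in 20 groups. All 4 were low values of SOD1G93A replicate 1. They were 1.69 for the brighter Hsph1 probe, 0.60 for the Hspa8 probe from base 730, -0.25 for the brighter Dnaja1 probe and 0.13 for Stip1, each as a log2 ratio. The other SOD1G93A arrays read 2.07 to 2.11, 1.86 to 2.02, 0.72 to 0.76 and 0.31 to 0.34 on these 4 probes.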

How the results depend on the processing

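The difference of each of the 10 genes stayed positive in all 190 values computed under 19 alternatives, and 184 of them moved by less than the spread between replicates. The other 6 were 0.51 for Chordc1 and 0.44 for Dnajb4 with Agilent's processed signals and with the series table, and for Hspa8 0.36 with the Cy3 channel alone and 0.40 with the mean of its probes. The median of the 10 lay between 0.44 and 0.61 in alternatives that kept all arrays or used only those numbered 2 to 4 (added after seeing the data), and between 0.50 and 0.62 with each array left out in turn. All 14 probes stayed higher in SOD1G93A nerve in each alternative that changed their values. The filters on dim probes, the mean of probes, the replicate block and array weights leave the values of single probes as they are. Those settings are therefore not counted as a test here. Agilent's processed signals and the series table hold ratios that are equal after rounding, so they are not separate checks. Leaving out 1 of 4 arrays cannot move a group mean by the spread between replicates, so those values had to stay within it. The differences were unchanged when signal well above background was required on all 8 arrays, with no filter on dim probes and with the replicate block. The 10 genes were chosen as higher on these arrays, so the signs and counts are a description only.

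Of all genes, 25 were called, and the count was 6 with processed signals and with the series table, 1 with median centring, 16 with no filter on dim probes, 392 with array weights, 233 on arrays numbered 2 to 4, and 3 to 179 with one array left out. It was 179 without SOD1G93A replicate 1, 9 without SOD1G93A replicate 2 or WT replicate 1, 4 without SOD1G93A replicate 3, 3 without SOD1G93A replicate 4, WT replicate 2 or WT replicate 3, and 16 without WT replicate 4. With the replicate block 1 gene was called; no SOD1G93A array correlated best with its own number. The count of 0 among other chaperone genes became 2 with array weights (Hspa5 and Sdf2l1) and 2 on arrays numbered 2 to 4 (Hspa5 and Hspd1). Of the 10 genes, 8 differed between WT nerve and pool, where 42.7% of all genes were above the pool and 34.1% below. The count was 3 with median centring and 7 to 9 with one array left out. The shares of all genes in those alternatives are not given here, so the counts are not read as particular to the 10. The cause of the changes in these counts was not tested. Dim pool signal limits the ratio of Hspa1a.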
